A study of Homo sapiens with 12 samples.

Results

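The promoters of the cytoplasmic ribosomal protein genes were followed as a housekeeping reference in ATAC-seq data from DU-145 and BT-549 cells. The members were the protein-coding GENCODE 44 genes on autosomes named RPL or RPS plus a number, with RPLP0, RPLP1, RPLP2 and RPSA, and without the RPS6K kinases. There were 81 such genes among 19103 protein-coding autosomal genes, 50 of the large subunit and its stalk and 31 of the small subunit. Each gene was read at the 100-bp bin with the highest mean coverage whose center lay within 1 kb of the transcription start site (TSS). A bin was found for 79 of the 81 genes in each line, whereas RPL3L and RPL10L had none in either line. DU-145 cells derive from castration-resistant prostate cancer (CRPC), and BT-549 cells from triple-negative breast cancer (TNBC). Both lines expressed a MUC1 short hairpin RNA under a tetracycline-inducible promoter (tet-MUC1shRNA) and received vehicle (0.1% DMSO) or doxycycline (DOX) for 7 days, with 3 libraries per condition and 12 in all. The sample labels also call the vehicle cells untreated. All 12 libraries carried the hairpin, so that MUC1 silencing and the action of DOX itself cannot be told apart. Control-hairpin cells and RNA were not analysed here.

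Ribosomal proteins coat the ribosomal RNAs of the large and small subunits and are needed in near-equal amounts, so that their genes are transcribed strongly in growing cells. Their promoters are mostly short, often lack a consensus TATA box and tend to start transcription at a C within a run of pyrimidines, the 5'TOP tract, through which mTOR signaling controls translation of the mRNA. In ATAC-seq, the Tn5 transposase cuts open chromatin, so that fragment coverage measures accessibility. Promoters of this kind are open in most cell types and are often taken as a reference.

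Sequence features were read from the RefSeq promoter table (GRCh38.p14, 250 bases before to 50 after the start), which matched 64 of the 81 genes by symbol. In 61 of the 64, the RefSeq start was that of the canonical GENCODE transcript. It lay 12330 bp away for RPS29, 544 bp for RPL26L1 and 320 bp for RPL6. These genes were still counted, as without a 5'TOP tract. A 5'TOP tract, here a C at the start followed by at least 4 pyrimidines, was present in 44 of the 64 (68.8%), against 4.68% of 14581 protein-coding promoters. The tract had a median length of 8 bases, with a range of 5 to 16. The letters CCGGAAG or, on the other strand, CTTCCGG, which ETS factors recognise, were found in 21 of the 64 (32.8%) and in 14.9% of all promoters. GGGCGG or CCGCCC, the letters read by SP factors, stood in 54.7% of the ribosomal protein promoters and in 62.2% of all promoters. CTCGCGAG, which is its own reverse complement, was in 9.38% against 1.65%, and AAGATGGCG or CGCCATCTT, a YY1 sequence, in 9.38% against 3.02%. CACGTG, the E-box, was found in 6.25% against 8.76%, and TGACTCA or TGAGTCA, the AP-1 sequence, in 1.56% against 3.52%. TATAAA at 20 to 40 bases before the start was present in 4 of the 64, against 3.92% of all promoters. A match is a description of letters and not of a bound site. The sequences of 12 genes are shown because they include the largest changes in either line, the largest differences between the lines and RPLP0, a common reference gene. Each runs 5′ to 3′ along the gene's strand for 60 bases before the start and 20 bases from it. Capitals mark the 5'TOP tract at the start, CCGGAAG or CTTCCGG, and TATAAA at the stated distance.
RPS14: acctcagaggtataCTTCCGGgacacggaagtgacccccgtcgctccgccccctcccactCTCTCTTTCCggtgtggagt (chr5:150449720-150449799, minus strand)
RPL37A: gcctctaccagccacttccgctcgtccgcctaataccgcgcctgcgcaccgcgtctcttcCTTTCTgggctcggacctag (chr2:216498784-216498863, plus strand)
RPL22L1: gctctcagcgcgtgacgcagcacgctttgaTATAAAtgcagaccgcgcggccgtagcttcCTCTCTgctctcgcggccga (chr3:170870176-170870255, minus strand)
RPL26: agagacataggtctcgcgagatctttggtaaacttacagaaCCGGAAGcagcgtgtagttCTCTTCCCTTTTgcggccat (chr17:8383174-8383253, minus strand)
RPL13A: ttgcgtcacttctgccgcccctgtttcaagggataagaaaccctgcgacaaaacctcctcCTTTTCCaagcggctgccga (chr19:49487548-49487627, plus strand)
RPL7A: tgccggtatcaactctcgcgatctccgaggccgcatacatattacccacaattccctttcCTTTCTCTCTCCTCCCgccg (chr9:133348158-133348237, plus strand)
RPLP0: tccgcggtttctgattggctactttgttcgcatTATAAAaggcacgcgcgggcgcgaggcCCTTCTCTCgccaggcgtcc (chr12:120201092-120201171, minus strand)
RPL17: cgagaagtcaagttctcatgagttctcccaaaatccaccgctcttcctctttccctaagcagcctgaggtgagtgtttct (chr18:49492446-49492525, minus strand)
RPS15: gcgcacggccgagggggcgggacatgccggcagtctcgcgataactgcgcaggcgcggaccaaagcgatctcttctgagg (chr19:1438336-1438415, plus strand)
RPL3: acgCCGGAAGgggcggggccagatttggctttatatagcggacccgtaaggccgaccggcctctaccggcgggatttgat (chr22:39319604-39319683, minus strand)
RPL19: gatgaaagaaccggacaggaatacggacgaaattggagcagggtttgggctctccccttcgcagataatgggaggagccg (chr17:39200223-39200302, plus strand)
RPL32: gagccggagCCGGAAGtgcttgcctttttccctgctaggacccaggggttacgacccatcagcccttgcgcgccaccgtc (chr3:12841546-12841625, minus strand)
The first 7 carry a 5'TOP tract at the RefSeq start, and the last 5 do not by the definition used here.

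The values of a library summed to between 12370094 and 25232000 in the 6 DU-145 libraries and to between 9142900 and 13606129 in the vehicle libraries of BT-549, but to between 2502510 and 3267024 in its DOX libraries. The median ribosomal protein bin thus held 16.5 to 20.9 fragments in BT-549 cells with DOX, 39.8 to 67.5 in those with vehicle and 64.5 to 123.06 in DU-145 cells. Levels are given as CPM, the bin value scaled by the sum of its library, so that a CPM is a share of the accessible signal of that library. More open alleles and more cuts per open allele cannot be told apart in bulk cells. A hairpin acts on mRNA, so that the MUC1 promoter is no check of silencing. It had 8.75 ± 0.931 CPM (SD, n = 3) in DU-145 cells with vehicle and 6.52 ± 0.634 with DOX (edgeR adjusted p = 0.00185), and 16.7 ± 2.98 and 12.9 ± 2.04 in BT-549 cells (adjusted p = 0.09). Of the epithelial markers EPCAM, CDH1, KRT8, KRT18 and GRHL2, all 5 had a promoter bin in DU-145 and none in BT-549. The mesenchymal markers VIM, ZEB1, CDH2, FN1 and SPARC all had one in BT-549, and 3 of the 5 had one in DU-145. KLK3, which marks prostate luminal cells, and the blood markers PTPRC and CD3E had none in either line.

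Ribosomal protein promoters were open in both lines but stood at the middle of the range of promoters. With vehicle, their median level was 5.49 CPM in DU-145 and 4.83 CPM in BT-549, against 5.59 and 4.91 CPM for all protein-coding promoters. The median member lay at the 49.1 percentile of promoters in DU-145 and at the 49.3 percentile in BT-549. Levels spanned 19.4-fold between the highest and the lowest member in DU-145 and 25.98-fold in BT-549. Across the 79 genes, log2 vehicle levels of the lines had a Pearson correlation of 0.76 (Spearman 0.75), as a description over the same or neighboring bins. The libraries of a condition varied by a median coefficient of variation of 10.5% (vehicle) and 8.85% (DOX) in DU-145, and of 11.6% and 19.6% in BT-549.

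**Figure D1:**
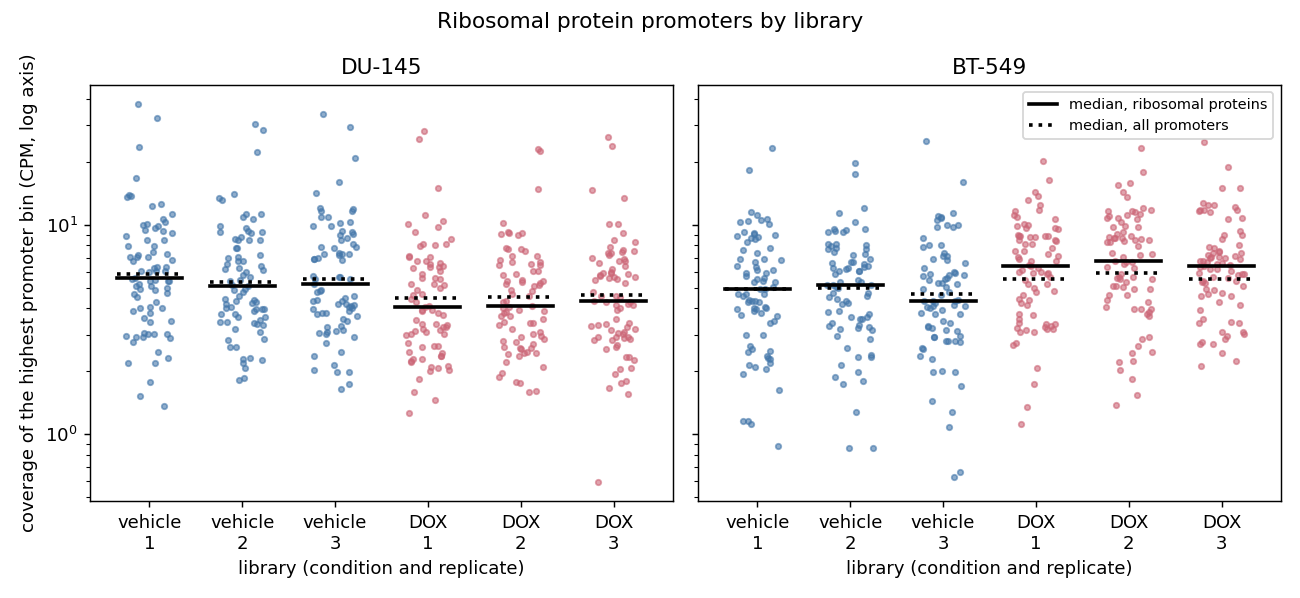
Coverage of the highest bin (CPM, log axis) of the 79 ribosomal protein promoters in each of the 12 libraries, 1 point per gene, with the median of the ribosomal proteins (solid line) and of all protein-coding promoters (dotted line). The solid lines lie at 5.13 to 5.59 CPM for vehicle and 4.05 to 4.35 CPM for DOX in DU-145, and at 4.36 to 5.16 CPM for vehicle and 6.40 to 6.74 CPM for DOX in BT-549.

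The most accessible member of DU-145 was RPL36AL, the autosomal copy of the X-linked RPL36A, with 37.98, 30.5 and 34.01 CPM with vehicle. Its bin lay within 1 kb of the start of MGAT2 too, so that the signal belongs to a shared promoter. RPS29, a zinc-binding protein of the small subunit, followed with 32.4, 28.4 and 29.3 CPM, and RPL7 of the large subunit with 23.7, 22.4 and 21.00 CPM. In BT-549, RPL7 was highest, with 23.5, 19.9 and 25.4 CPM, before RPL39L with 18.4, 17.5 and 16.1 CPM. RPL30 was next by the mean over all 6 libraries, with 11.2, 10.4 and 10.8 CPM with vehicle. RPL7 was thus among the 3 highest in both lines, and the center of its bin, at -517 bp from its own TSS, also lay within 1 kb of the start of RDH10. The lowest levels with vehicle in DU-145 were those of RPL17 (1.87 ± 0.433 CPM, SD, n = 3), RPL23 (1.76 ± 0.101) and RPL3 (2.001 ± 0.197), which lay within each other's spread. In BT-549, RPL38 (0.882 ± 0.263 CPM), RPL17 (0.892 ± 0.247) and RPL23 (1.15 ± 0.2304) were lowest, and their spreads overlapped too. RPL17 and RPL23, both of the large subunit, were therefore among the 3 lowest in both lines.

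The accessible site lay just upstream of the start. The center of the highest bin was upstream of the TSS in 70 of 79 members in DU-145 (88.6%) and in 71 of 79 in BT-549 (89.9%), against 69.3% and 67.2% of all protein-coding promoters. Its median distance was -105 bp in DU-145 and -113 bp in BT-549, with a standard deviation of 121 and 114 bp over the members, where that of all promoters was 287 and 282 bp. In 65 members in DU-145 and 67 in BT-549, the center lay within 200 bp of the TSS. The bins of the members had a median GC content of 61% in DU-145 and 60% in BT-549, against 68% for all promoters in both. A start of another protein-coding gene lay within 1 kb of the bin in 17 of the 79 members (21.5%). Among all protein-coding promoters, the share was near this, at 19.2% in DU-145 and 19.7% in BT-549. Examples were RPL7A with MED22 (87 bp between the starts), RPL12 with LRSAM1 (104 bp) and RPL9 with LIAS (134 bp). Processed pseudogenes of ribosomal protein genes copy exons, so that bins reaching into an exon could share reads with them. How reads with several matches were treated is not given in the sources used here.

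**Figure D2:**
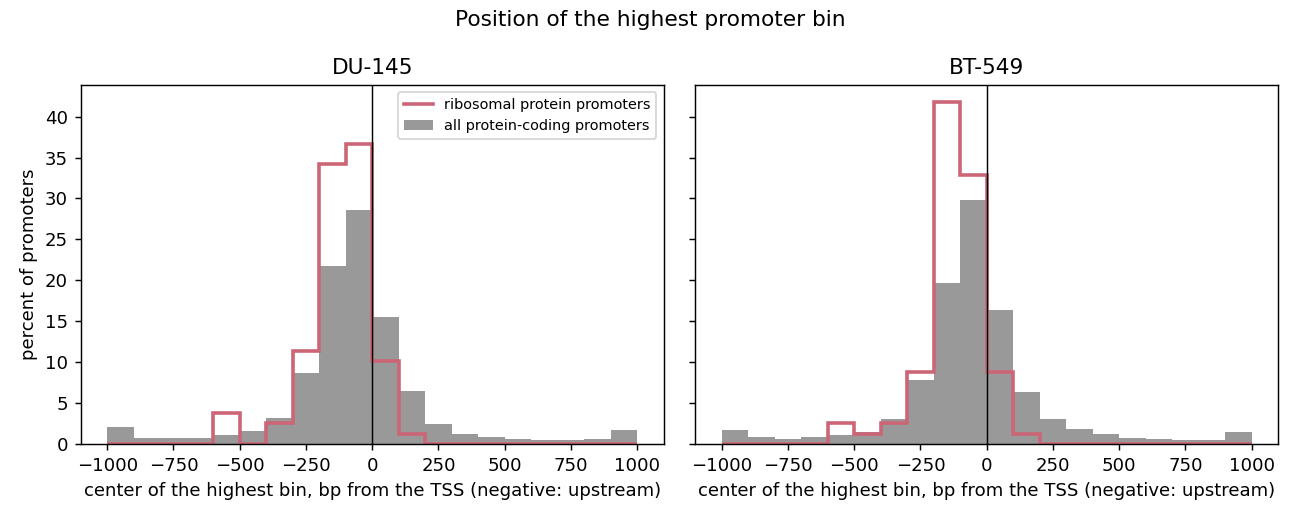
Distance of the center of the highest bin from the TSS in bp (negative is upstream), as percent of the 79 ribosomal protein promoters (red line) and of all protein-coding promoters (gray bars), in steps of 100 bp. The ribosomal protein bins gather in the 200 bp before the TSS in both lines.

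Peaks that the authors called in each library lay at nearly all of these promoters. A peak summit was within 1 kb of the TSS for 77 to 79 of the 81 genes in each of the 12 libraries (95.1% to 97.5%), against 59.2% to 68.1% of all protein-coding genes. There were 73 genes with a peak in all 12 libraries. RPL13 had a summit within 1 kb in the 6 BT-549 libraries and in none of DU-145, where its bin was covered, and RPL38 lacked one in BT-549 vehicle replicate 3 and DOX replicate 1. The median fold enrichment over the local background was 42.8 to 59.8 for vehicle and 32.6 to 44.9 for DOX in DU-145, and 22.4 to 32.7 for vehicle and 11.7 to 14.8 for DOX in BT-549. Library sums differed between these groups as given above, and the fold enrichments were not tested.

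In DU-145 cells, DOX went with lower accessibility of the ribosomal protein promoters. Of the 79 members, 44 fell (55.7%), 35 were not called and 0 rose at an adjusted p under 0.05 by edgeR's quasi-likelihood test over all 709226 bins. At an unadjusted p under 0.05, 0 members were higher and 52 lower, and DESeq2 and limma called 0 higher too. The median log2 fold change was -0.35 (interquartile range -0.50 to -0.21), a change of -21.8%. Other promoters moved the same way, with 45.1% of 13378 protein-coding promoters lower, 3.16% higher and a median of -0.29. Over all bins the balance with library sums was the opposite, since 22.8% were higher and 11.8% lower. The members' median lay at -0.06 from that of all promoters, and at -0.06 with TMM factors, -0.18 after removal of the GC trend, -0.07 with loess offsets and -0.14 with the sum of the bins within 1 kb. The 3 DOX libraries lay below the 3 vehicle libraries without overlap in 49 members (62.0%), as they did in 51.7% of all promoters, and above them in 0 members against 4.86% of all promoters. No member reached a fold change of 2, which a differentially accessible region (DAR) needs in addition to an adjusted p under 1e-05. Of all promoters, 0.830% were DARs. The cutoffs are those of the paper, which applied them to DESeq2 Wald tests, whereas here they were applied to the edgeR test. With loess offsets in place of library sums, 19 members were lower and 2 higher, with a median of -0.16, against 657 promoters higher and 1802 lower. The median of all bins was 0.20 with library sums, 0.07 with TMM factors, -0.02 with loess offsets and -0.07 after removal of the GC trend. With the GC trend removed, 95761 bins were higher and 130612 lower, and with DESeq2 63617 and 63955. With TMM factors, 59 members (74.7%) and 59.3% of all promoters were lower. After removal of the GC trend, 59 members and 45.1% of all promoters were lower.

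**Figure D3:**
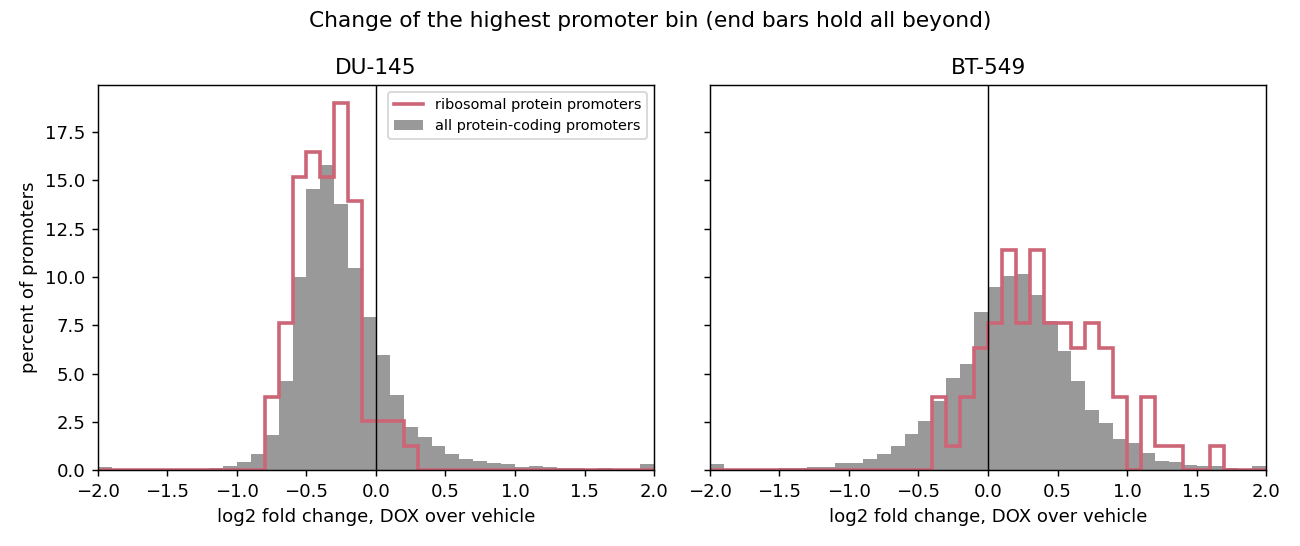
Log2 fold change of the highest promoter bin, DOX over vehicle, for the 79 ribosomal protein promoters (red line) and all protein-coding promoters (gray bars), as percent of each set in steps of 0.1. In DU-145, 74 of 79 ribosomal protein promoters lie below 0, with loess offsets 62, and in BT-549, 67 of 79 lie above 0.

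Among proteins of the large subunit and stalk, 26 of 48 measured members fell in DU-145 cells (54.2%), and the median log2 fold change was -0.33. Of all promoters, 45.1% were lower, with a median of -0.29. RPL37A, a small zinc-binding protein, had 5.59, 4.22 and 4.19 CPM with vehicle and 2.63, 2.77 and 2.899 CPM with DOX. Every DOX library was below every vehicle library (log2 fold change -0.72, SE 0.15, edgeR adjusted p = 6.6e-05). RPL22L1, the paralog of RPL22, fell from 10.1, 8.78 and 8.48 CPM to 5.83, 5.25 and 5.91 CPM, with no overlap (log2 fold change -0.69, SE 0.11, edgeR adjusted p = 1.24e-06). RPL17 had low values, 1.37, 2.08 and 2.14 CPM with vehicle and 1.27, 1.62 and 0.591 CPM with DOX, and its groups overlapped. Its call (log2 fold change -0.69, SE 0.24, edgeR adjusted p = 0.0177) was lost without DOX replicate 3 (log2 fold change -0.36, adjusted p = 0.276), vehicle replicate 2 (adjusted p = 0.155) or vehicle replicate 3 (adjusted p = 0.0628), and with DESeq2 (adjusted p = 0.0766). RPL7 fell from 23.7, 22.4 and 21.00 CPM to 15.04, 14.8 and 14.8 CPM (log2 fold change -0.59, SE 0.09, edgeR adjusted p = 8.17e-08). The call for RPL7 was lost with loess offsets, at -0.12 and an adjusted p of 0.261. RPL36AL fell from 37.98, 30.5 and 34.01 CPM to 25.8, 22.6 and 23.8 CPM, and its log2 fold change of -0.50 turned to 0.08 with loess offsets.

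RPL5 and RPL11, which bind MDM2 when they are not built into ribosomes, were both lower in DU-145 cells with DOX. RPL5 had 6.07, 6.195 and 5.71 CPM with vehicle and 3.804, 4.005 and 4.17 CPM with DOX (log2 fold change -0.59, SE 0.13, edgeR adjusted p = 0.000148). RPL11 went from 2.32, 2.84 and 2.38 CPM to 2.11, 1.77 and 1.803 CPM, also without overlap. Its result was close to the limit (log2 fold change -0.45, SE 0.18, edgeR adjusted p = 0.0451), and the call was lost without vehicle replicate 2 (adjusted p = 0.326), vehicle replicate 3 (0.0526), DOX replicate 2 (0.126) or DOX replicate 3 (0.119). It was also lost with DESeq2 (0.12), limma-trend (0.087) and the sum of the bins within 1 kb (log2 fold change -0.23, adjusted p = 0.289). The stalk proteins, which recruit the GTPases of translation, gave 1 call. RPLP1 fell from 7.01, 5.38 and 5.64 CPM to 4.11, 4.904 and 4.58 CPM (log2 fold change -0.37, edgeR adjusted p = 0.0213), and the call was lost with loess offsets (0.31), the sum of bins (log2 fold change -0.12, adjusted p = 0.341) and without vehicle replicate 1 (0.161), DOX replicate 1 (0.0829) or DOX replicate 3 (0.0533). RPLP0, often used to normalize PCR, had 12.6, 10.7 and 10.99 CPM with vehicle and 10.1, 9.22 and 10.1 CPM with DOX and was not called (log2 fold change -0.22, edgeR adjusted p = 0.0922, 0.00904 with TMM factors and 0.01 with the sum of bins). RPLP2 had 5.12, 6.95 and 6.89 against 5.51, 5.49 and 6.57 CPM, with overlapping groups. RPL3, which reaches the peptidyl transferase center, had 2.204, 1.81 and 1.99 against 2.73, 1.88 and 1.77 CPM, also with overlap (log2 fold change 0.06, edgeR adjusted p = 0.84).

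Of the 31 proteins of the small subunit, 18 fell in DU-145 cells (58.1%), with a median log2 fold change of -0.36. All promoters had 45.1% lower and a median of -0.29. RPS14, whose loss on chromosome 5 is known from myelodysplastic syndrome, fell from 13.9, 11.3 and 10.9 CPM to 8.11, 6.06 and 7.62 CPM (log2 fold change -0.74, SE 0.11, edgeR adjusted p = 1.17e-07), with no overlap. RPS14 kept its call in all settings tried, as did RPL37A, RPL22L1, RPL5, RPL30 and RPL32 among the named members of the large subunit. RPS6, the substrate of the S6 kinases, fell from 5.51, 4.26 and 4.03 CPM to 3.202, 3.41 and 3.07 CPM (log2 fold change -0.49, edgeR adjusted p = 0.00543), which was lost without vehicle replicate 1 (0.0648). RPS27A, made as a fusion with ubiquitin, fell from 13.8, 13.1 and 14.2 CPM to 9.803, 9.104 and 8.51 CPM (log2 fold change -0.59, edgeR adjusted p = 1.89e-06), and with loess offsets the adjusted p was 0.055. RPS29 went from 32.4, 28.4 and 29.3 CPM to 28.1, 23.05 and 26.3 CPM (log2 fold change -0.22, edgeR adjusted p = 0.0315), but with loess offsets it was at 0.34 and called higher (adjusted p = 2.14e-05). The call for RPS29 was also lost without vehicle replicate 1 (0.0884) or 3 (0.0655) and without DOX replicate 2 (0.26) or 3 (0.072). RPSA, also known as a laminin receptor, had 7.41, 6.75 and 6.78 against 6.35, 6.63 and 5.54 CPM, without overlap but not called (adjusted p = 0.283, 0.0476 with TMM factors and 0.00488 with the GC trend removed).

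A total of 5 members of DU-145 had a positive log2 fold change, and none of them was called at its highest bin by edgeR with library sums. RPL23, another MDM2-binding protein, had 1.78, 1.85 and 1.65 CPM with vehicle and 2.009, 2.45 and 1.55 CPM with DOX (log2 fold change 0.20, edgeR adjusted p = 0.465). RPS15, near the decoding site, had 3.06, 3.19 and 3.07 against 3.005, 3.86 and 3.55 CPM (log2 fold change 0.18, edgeR adjusted p = 0.391), and with the sum of the bins within 1 kb it was called higher at 0.32 (adjusted p = 0.0409). RPL3 and RPS27L were closer to 0. The vehicle and DOX libraries overlapped in all 5, which stood 0.33 to 0.50 above the median promoter on the log2 scale.

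In BT-549 cells, DOX went with higher accessibility of these promoters. Of the 79 members, 23 rose (29.1%), 56 were not called and 0 fell at an adjusted p under 0.05 by edgeR over 472935 bins. An unadjusted p under 0.05 was found for 34 higher and 0 lower members, and DESeq2 and limma called 0 lower. The median log2 fold change was 0.37 (interquartile range 0.13 to 0.71), a change of 29.1%. All protein-coding promoters had a median of 0.19, and 13.4% of 12842 were higher and 1.74% lower. Of all bins, 5.03% were higher and 5.91% lower, with a median of -0.06. The members' median lay 0.18 above that of all promoters on the log2 scale, and 0.18 with TMM factors, 0.26 after removal of the GC trend and 0.21 with loess offsets. DOX libraries were above vehicle libraries without overlap in 33 members (41.8%) against 27.7% of all promoters, and below in 3 members (3.80%) against 7.19%. At a fold change of 2 and an adjusted p under 0.01 by edgeR, 5 of the 79 members were opening DARs and 0 closing. Of 12842 promoters, 355 were opening and 68 closing DARs, 3.29% in either direction. The number of calls depended on single libraries, with 13 members higher without vehicle replicate 3, 13 without DOX replicate 1, 12 without DOX replicate 2 and 11 without DOX replicate 3, and DESeq2 called 11. The DOX libraries of BT-549 were the shallowest, and the part of depth in these results was not tested.

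The 5 opening DARs by edgeR were RPL17, RPL7A, RPS15, RPL3 and RPL13A. RPL17, at the exit of the peptide tunnel, had 1.15, 0.8599 and 0.663 CPM with vehicle and 3.24, 1.83 and 3.43 CPM with DOX. The groups did not overlap (log2 fold change 1.61, SE 0.39, edgeR adjusted p = 0.00198), from bin values of 4.59 to 11.2 fragments with DOX. Without DOX replicate 3, RPL17 was at 1.44 with an adjusted p of 0.065. RPL7A rose from 2.11, 1.74 and 1.695 CPM to 4.77, 5.08 and 4.58 CPM (log2 fold change 1.34, SE 0.29, edgeR adjusted p = 0.000452), and its bin is shared with MED22, a subunit of Mediator. RPS15 had 1.63, 2.14 and 1.44 CPM with vehicle and 5.25, 5.602 and 2.45 CPM with DOX (log2 fold change 1.30, SE 0.31, edgeR adjusted p = 0.0014, and 0.0525 without DOX replicate 2). RPL3 rose from 2.14, 2.35 and 2.76 CPM to 4.24, 6.52 and 4.91 CPM (log2 fold change 1.12, SE 0.27, edgeR adjusted p = 0.00216, and 0.0563 without DOX replicate 2). RPL13A, which can leave the ribosome to silence inflammatory mRNAs, rose from 4.01, 3.86 and 2.93 CPM to 8.12, 8.82 and 7.38 CPM (log2 fold change 1.12, SE 0.22, edgeR adjusted p = 6.35e-05). RPL19, at a bridge between the subunits, went from 1.12, 1.88 and 1.08 CPM to 3.31, 2.48 and 3.08 CPM (log2 fold change 1.12, SE 0.36, edgeR adjusted p = 0.0292). This call was lost without vehicle replicate 1 (0.11) or 3 (0.0674) and without DOX replicate 1 (0.155) or 3 (0.133), and with DESeq2 (0.131). Among the named members, the calls for RPL7A, RPL13A and RPL26 held in all settings tried.

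Of the large subunit and stalk, 17 of 48 members rose in BT-549 (35.4%), with a median log2 fold change of 0.42. In the small subunit, 6 of 31 rose (19.4%), with a median of 0.34. All promoters had 13.4% higher and a median of 0.19. RPL11 rose from 4.08, 5.87 and 4.11 CPM to 6.27, 8.28 and 7.73 CPM (log2 fold change 0.66, SE 0.22, edgeR adjusted p = 0.0349). The RPL11 call was lost with loess offsets (0.0866), the GC trend removed (0.0962), DESeq2 (0.183) or limma-trend (0.0547), without vehicle replicate 1 (0.148) or 3 (0.0785) and without DOX replicate 2 (0.18) or 3 (0.163). RPL5 had 8.89, 6.67 and 7.09 against 8.92, 10.8 and 6.87 CPM, with overlap (log2 fold change 0.17, edgeR adjusted p = 0.653). Of the stalk, RPLP2 rose from 4.67, 4.57 and 3.75 CPM to 6.86, 8.62 and 5.800 CPM (log2 fold change 0.69, SE 0.22, edgeR adjusted p = 0.0313), which was lost with loess offsets (0.0739), the GC trend removed (0.168) or DESeq2 (0.134), without vehicle replicate 3 (0.0809) and without DOX replicate 1 (0.0914) or 2 (0.261). RPLP0 had 5.57, 6.06 and 5.58 against 7.52, 8.32 and 6.63 CPM, without overlap but not called (log2 fold change 0.37, edgeR adjusted p = 0.293). RPLP1 had 2.55, 2.59 and 2.96 against 4.65, 2.66 and 2.700 CPM, with overlap (log2 fold change 0.33, edgeR adjusted p = 0.582). RPS6 had 7.34, 6.63 and 6.79 against 4.43, 5.81 and 8.99 CPM, so that its DOX libraries spread on both sides of the vehicle libraries (log2 fold change -0.08, edgeR adjusted p = 0.878). RPS27A (log2 fold change 0.26, edgeR adjusted p = 0.562) and RPSA (log2 fold change 0.23, edgeR adjusted p = 0.433) were not called. RPL38 and RPL23, near the bottom of the range, had log2 fold changes of 0.84 (SE 0.46) and 0.99 (SE 0.41) and were not called, with DOX bin values as low as 3.47 and 2.9 fragments. With the sum of the bins within 1 kb, both were called higher, RPL38 at 0.98 (adjusted p = 0.0428) and RPL23 at 0.80 (adjusted p = 0.036). RPL39L had 18.4, 17.5 and 16.1 against 16.5, 17.9 and 19.02 CPM, and RPL7 23.5, 19.9 and 25.4 against 20.2, 23.3 and 24.95 CPM, and neither was called by edgeR (adjusted p = 0.901 and 0.977). Their standard errors of 0.13 and 0.12 on the log2 scale were the smallest of the 79 members.

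The lowest fold changes of BT-549 were those of RPS26, RPL7L1, RPL6, RPL37 and RPL23A, and none was called. RPS26, in which mutations cause Diamond-Blackfan anemia, had 6.13, 6.28 and 7.14 CPM with vehicle and 5.92, 5.64 and 3.57 CPM with DOX (log2 fold change -0.39, SE 0.23, edgeR adjusted p = 0.327). RPL6 had 2.33, 2.34 and 2.57 against 1.74, 2.03 and 2.12 CPM (log2 fold change -0.33, edgeR adjusted p = 0.659), and RPL37 8.67, 7.67 and 8.06 against 7.05, 7.201 and 6.97 CPM (log2 fold change -0.21, edgeR adjusted p = 0.573). In these 3 genes the DOX libraries lay below the vehicle libraries, as in no other member. RPL7L1 (log2 fold change -0.36, edgeR adjusted p = 0.375) and RPL23A (log2 fold change -0.16, edgeR adjusted p = 0.746) overlapped. All 5 were called lower in DU-145, with log2 fold changes of -0.32 for RPS26, -0.44 for RPL7L1, -0.45 for RPL6, -0.29 for RPL37 and -0.51 for RPL23A, but with loess offsets all 5 calls were lost, at -0.06, -0.28, -0.42, 0.06 and -0.16 in that order, with RPL37 changing sign and RPL6 nearly as low as before (adjusted p = 0.0504). The DU-145 calls were also lost without vehicle replicate 2 (0.106), vehicle replicate 3 (0.144) or DOX replicate 3 (0.129) for RPS26 and without DOX replicate 1 (0.0548) for RPL7L1. For RPL6 this was so without vehicle replicate 2 (0.398), DOX replicate 2 (0.084) or DOX replicate 3 (0.075) and with DESeq2 (0.0877), limma-trend (0.0757) or the sum of bins (log2 fold change -0.17, adjusted p = 0.375), and for RPL37 without vehicle replicate 1 (0.104) or DOX replicate 2 (0.114).

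**Figure D4:**
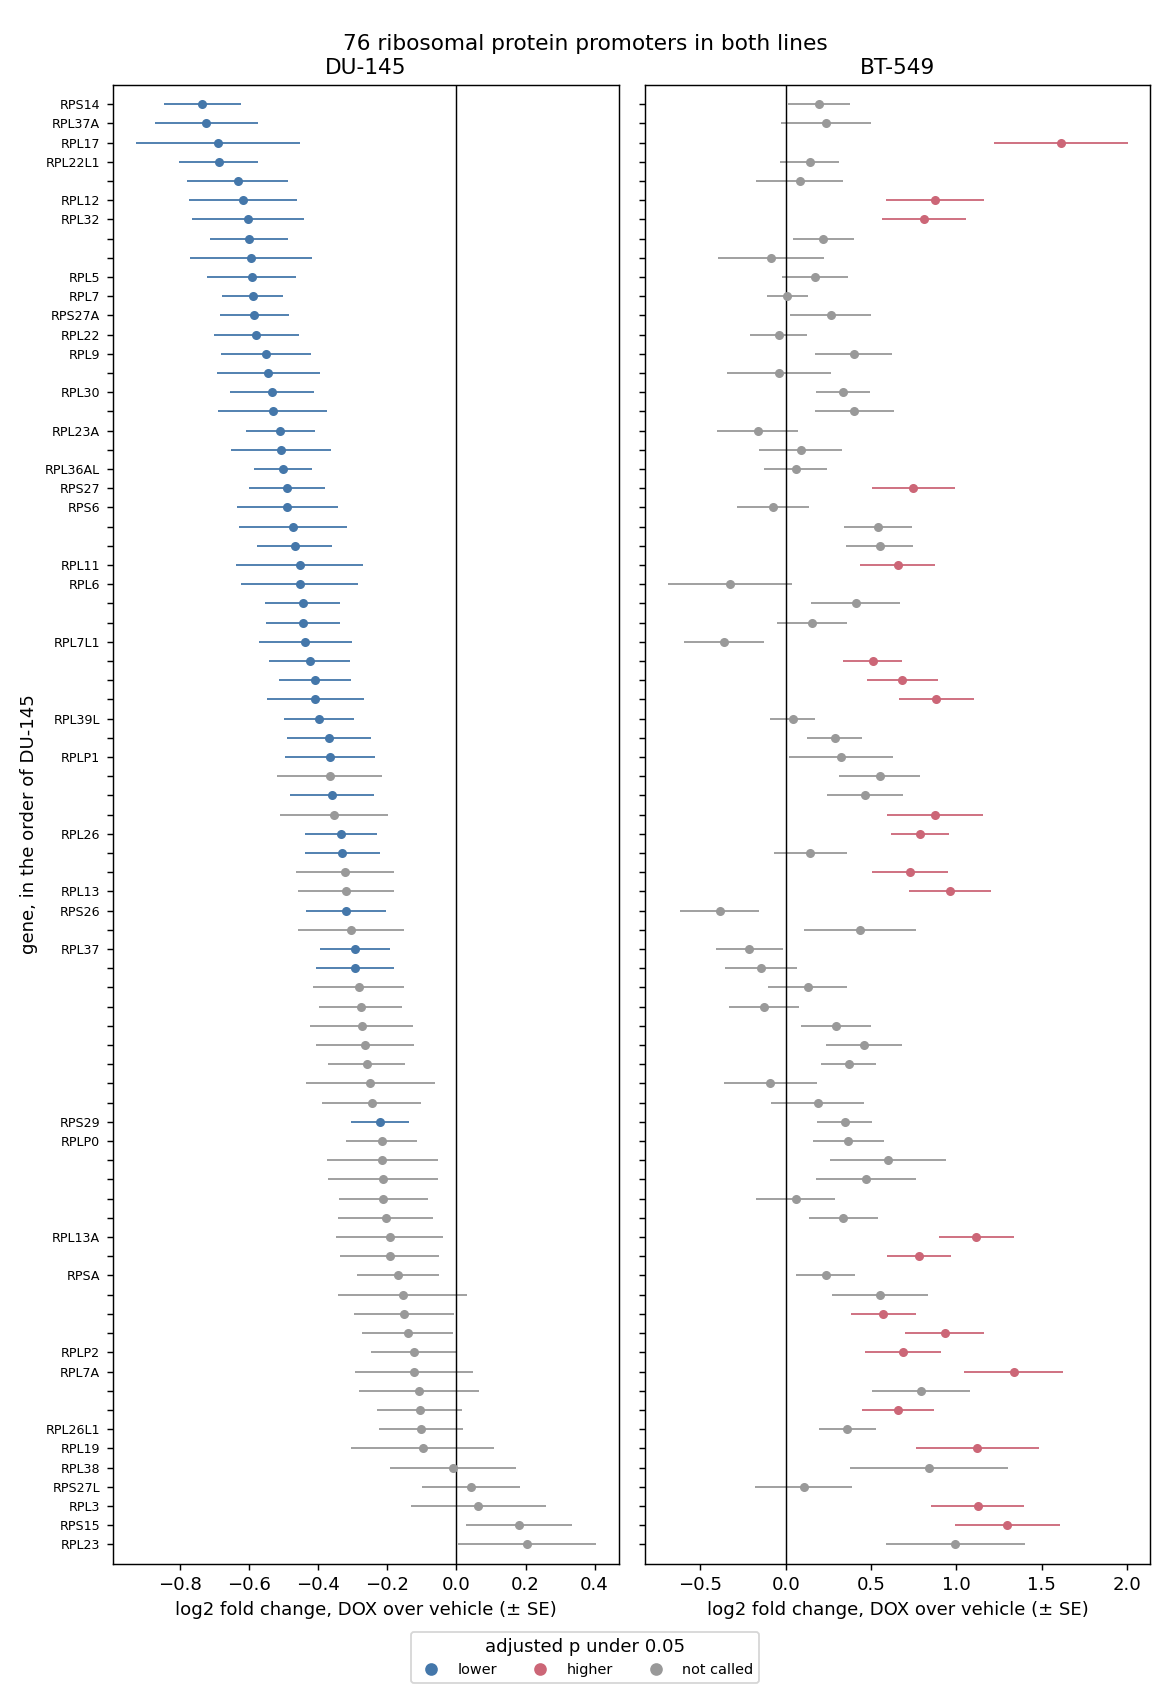
Log2 fold change (DOX over vehicle, ± SE) of 76 ribosomal protein promoters, DU-145 on the left and BT-549 on the right, in the order of DU-145, colored by the call at an adjusted p under 0.05, with names for the genes described in the text. With library sums, 42 of these points are called lower in DU-145 and 22 are called higher in BT-549, and with loess offsets RPL36AL, RPL37, RPL39L and RPS29 change sign in DU-145.

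Whether the DOX effect differed by line was tested with an interaction term at bins present in both tables. Of 79 members, 41 had a higher DOX effect in BT-549 than in DU-145 at an edgeR adjusted p under 0.05 (51.9%), and 0 had a lower one (0 also at an unadjusted p under 0.05). Among 12209 shared promoters, 32.0% were higher and 0.909% lower. The median difference was 0.76 on the log2 scale for the members and 0.49 for all promoters, and 76 of 79 members were above 0. The exceptions were RPS27L (-0.44), RPL6 (-0.22) and RPS26 (-0.07). Each member was read here at the shared bin with the highest mean CPM, which can differ from its highest bin in a line. The log2 ratio of mean CPM at the shared bin was -0.39 for RPS27L in BT-549 and -0.10 for RPL6 in DU-145. At the highest bin of each line, RPS27L had 0.04 in DU-145 and 0.10 in BT-549, and RPL6 had -0.45 and -0.33. Neither was lower in BT-549 there. RPL26, which binds the p53 mRNA, fell in DU-145 from 10.6, 9.88 and 9.88 CPM to 7.98, 7.81 and 8.301 CPM and rose in BT-549 from 8.32, 7.29 and 6.62 CPM to 11.6, 15.5 and 11.8 CPM. Its difference was 1.12 (SE 0.20, edgeR adjusted p = 1.18e-05), and in DU-145 its call was lost with loess offsets, at -0.02. RPL32 had 3.003, 3.76 and 4.16 against 2.22, 2.59 and 2.35 CPM in DU-145 and 3.903, 2.96 and 2.91 against 5.24, 4.61 and 7.13 CPM in BT-549, a difference of 1.41 (SE 0.30, edgeR adjusted p = 0.00021). The BT-549 call of RPL32 was lost without vehicle replicate 2 (0.0587), DOX replicate 1 (0.0503) or DOX replicate 3 (0.287), and with DESeq2 (0.115). RPL17 differed by 2.31 (SE 0.48, edgeR adjusted p = 0.000145) and RPL13A by 1.31 (SE 0.27, edgeR adjusted p = 0.000137). A total of 10 members were called both lower in DU-145 and higher in BT-549 (12.7%, against 7.37% of 12229 promoters), among them RPL11, RPL12, RPL17, RPL26, RPL32 and RPS27. Across the 79 members, the log2 fold changes of the lines had a Pearson correlation of 0.32 (Spearman 0.32), and across 12229 promoters of 0.05, as a description over genes of the same libraries.

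Paralogs were set beside their partners, with no test of the difference within a pair. In DU-145, RPL22 (log2 fold change -0.58, edgeR adjusted p = 0.000113) and RPL22L1 (-0.69) both fell. RPL26 fell (log2 fold change -0.33, edgeR adjusted p = 0.00898), and RPL26L1 was not called (log2 fold change -0.10, edgeR adjusted p = 0.556), but after removal of the GC trend it was called lower at -0.44 (adjusted p = 0.00354). RPS27 fell (log2 fold change -0.49, edgeR adjusted p = 0.00025), and RPS27L, a p53 target, was not called (log2 fold change 0.04, edgeR adjusted p = 0.857). In BT-549, RPS27 rose (log2 fold change 0.75, edgeR adjusted p = 0.0343) and RPS27L was not called (log2 fold change 0.10, edgeR adjusted p = 0.879), and RPL22 (-0.04) and RPL22L1 (0.14) were not called either. RPL26L1 had 8.97, 9.59 and 9.802 against 13.1, 11.2 and 11.8 CPM in BT-549, without overlap but not called (log2 fold change 0.36, edgeR adjusted p = 0.16). RPL39L, best known from testis, was at the 92.7 percentile of promoters in DU-145 and the 97.9 percentile in BT-549 with vehicle. It fell in DU-145 from 16.9, 13.5 and 16.1 CPM to 11.1, 10.2 and 13.4 CPM (log2 fold change -0.40, edgeR adjusted p = 0.00113), which became 0.01 with loess offsets. RPL3L, the striated-muscle paralog of RPL3, and RPL10L, a testis paralog of RPL10, had no bin and no peak summit within 1 kb in any library.

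Features that the choice of the members did not use were set beside their changes as counts with no test, in classes chosen after the values had been seen. Of the members with a bin and a RefSeq entry, 24 of 44 with a 5'TOP tract fell in DU-145 and 11 of 19 without one. In BT-549, 15 of 44 and 5 of 19 rose. With GGGCGG or CCGCCC, 13 of 34 fell in DU-145 (median -0.28), and without it 22 of 29 (median -0.44). Members whose bin lay near the start of another gene fell in 12 of 17 cases, and the others in 32 of 62. These classes by sequence and neighboring start were not formed over all promoters. Of all promoters together, 45.1% were lower in DU-145 and 13.4% higher in BT-549, so that a trait particular to the members cannot be read from these counts. By level, 11 of the 26 lowest, 13 of the 27 middle and 20 of the 26 highest members fell in DU-145, with medians of -0.33, -0.32 and -0.40, where 12.3%, 42.9% and 80.1% of all promoters cut the same way were lower, with medians of -0.08, -0.28 and -0.41. In BT-549, these classes of members had medians of 0.51, 0.40 and 0.26, and all promoters 0.14, 0.18 and 0.23. Each set was cut by its own levels, so that the classes of members and of all promoters are not matched in level. In DU-145, the vehicle median of the lowest class was 3.13 CPM for the members and 1.82 CPM for all promoters. That of the highest class was 9.65 and 11.3 CPM. Chromosome 19 holds 12 members, of which 3 fell in DU-145 and 7 rose in BT-549, against 41 of 67 and 16 of 67 elsewhere. Of all promoters on chromosome 19, 29.2% were lower in DU-145 against 46.4% elsewhere, and 26.6% were higher in BT-549 against 12.4%.

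Other housekeeping groups were set beside the ribosomal proteins. In DU-145, 36 of 77 mitochondrial ribosomal protein genes fell (median -0.31), 20 of 36 proteasome subunits (-0.33), 18 of 24 translation factors and other 5'TOP genes (-0.41) and 16 of 28 ribosome biogenesis genes (-0.35), and 0 rose in each list by edgeR with library sums, against 45.1% of all promoters lower, 3.16% higher and a median of -0.29. In BT-549, the translation factors and 5'TOP genes had a median of 0.42 (6 of 24 higher), next to the ribosomal proteins with 0.37 (23 of 79), against 13.4% of all promoters higher. Mitochondrial ribosomal proteins had 0.30 (10 of 77), ribosome biogenesis genes 0.21 (3 of 28) and proteasome subunits 0.13 (3 of 36), where all promoters had 0.19. In all 4 scalings plotted, the median of the ribosomal proteins was below that of all promoters in DU-145 and above it in BT-549.

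**Figure D5:**
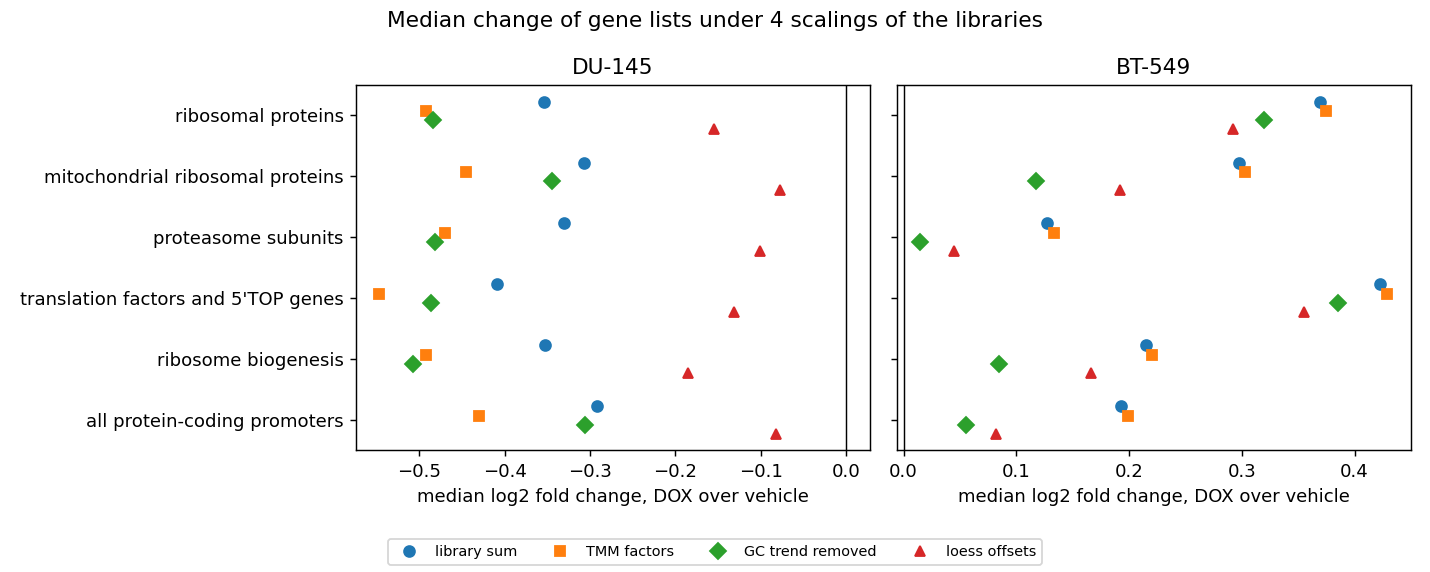
Median log2 fold change (DOX over vehicle) of the highest promoter bin for the ribosomal proteins, 4 other gene lists and all protein-coding promoters, under 4 scalings of the libraries. The ribosomal proteins lie between -0.49 and -0.16 in DU-145 and between 0.29 and 0.37 in BT-549, with the median of all promoters nearer to 0 in each scaling.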

How the data were processed

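ATAC-seq was measured in 12 libraries of 50000 cells. Per the paper's methods, the authors used bwa-mem for alignment to GRCh38, Picard against duplicates, and called peaks per library with MACS2 (version 2.2.7.1 in the submitters' processing notes) at a q-value of 0.05 and kept regions found in at least 3 libraries, split every 100 bp. Values deposited per bin are estimated counts (mean fragments), not normalized for depth. In the deposited peak lists, the authors give the fold enrichment as a ratio and the −log10 of the q-value.

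Here, bin values were rounded and tested per line with edgeR 4.0.16 (quasi-likelihood, robust, library sizes equal to column sums, a total of at least 10, Benjamini-Hochberg over all bins). The design had assumed whole counts. DARs needed a fold of 2 and an adjusted p under 1e-05 (DU-145) or 0.01 (BT-549) by edgeR, whereas the paper applied these cutoffs to DESeq2 Wald tests. Over all BT-549 bins, edgeR gave 9779 opening and 13555 closing DARs, and DESeq2 gave 4446 and 3223. Over all DU-145 bins, edgeR gave 35452 opening and 11250 closing DARs, and DESeq2 gave 6517 and 6430. The highest bin was taken by mean CPM over vehicle and DOX, from the canonical GENCODE TSS. Groups came from the labels, and the paper calls the replicates biologically independent. Members, lists and rules were chosen with earlier results of these data known. Named were, per line, the 5 largest increases and decreases (filled up by the smallest adjusted p), the 3 highest and lowest levels, a set of roles and paralogs, members without a bin and the 5 smallest p of the interaction, and after values were seen RPL9, RPL12, RPL13, RPL22, RPS27 and members called in both lines. Some items that these rules name are not reported here. Alternatives were TMM and DESeq2 size factors, GC and loess offsets (pseudocount 0.5), DESeq2 1.42.0, limma-trend 3.58.1 on log2(CPM + 1), no filter, sums of bins, a window of 500 bp, any transcript start, the replicate block and leaving out each library. Of these alternatives, the interaction was refitted only with TMM factors and the replicate block. The fit was tested on simulated data.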

Additional observations from a re-analysis of the deposited data

Results flagged for a closer look

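The DOX effect differed between the lines at 41 of 79 ribosomal protein promoters (51.9%) by the interaction of line and DOX. Each had a higher effect in BT-549, as had 32.0% of 12209 shared promoters. The median difference was 0.76 on the log2 scale for the members and 0.49 for all promoters. Among the members with the smallest p were RPL26, with a difference of 1.12 on the log2 scale (BT-549 minus DU-145), RPL13A with 1.31, RPL17 with 2.31 and RPL32 with 1.41. The difference covers 2 lines that were each measured in their own libraries, and the depth of the BT-549 DOX libraries was the lowest of the groups. The part of depth in these differences was not tested. Each library was left out in turn in the tests within a line, but not in the interaction. Groups of 3 libraries were not otherwise examined for single outlying samples.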

How the results depend on the processing

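In DU-145, the number of ribosomal protein promoters lower with DOX (44) was 41 to 59 under TMM factors, DESeq2 size factors in edgeR, GC and DESeq2 or limma tests, and 19 with loess offsets. Of all promoters, 45.1% were lower with library sums, 43.5% to 59.9% under those other settings and 13.5% with loess offsets. Ribosomal protein promoters higher with DOX were 2 with loess offsets and 1 with the sum of the bins within 1 kb, against 4.91% and 6.73% of all promoters. The median (-0.35) moved to -0.49 with TMM factors, -0.51 with DESeq2 size factors, -0.48 after removal of the GC trend, -0.16 with loess offsets, -0.52 with DESeq2 and -0.29 with limma-trend. In BT-549, the 23 higher ribosomal protein promoters became 11 with DESeq2, and 11 to 19 without 1 library. The share of all promoters that was higher went from 13.4% to 5.86% with DESeq2, and to 8.14% to 12.5% without 1 library. The median (0.37) moved to 0.32 after removal of the GC trend, 0.29 with loess offsets, 0.32 with limma-trend and 0.26 with the sum of bins, and lay between 0.35 and 0.41 without 1 library. The causes were not tested. Under loess offsets in DU-145, RPL36AL was at 0.0775, RPL37 at 0.0628, RPL39L at 0.00723 and RPS29 at 0.345. Replicate numbers are shared between the groups, but deviations of same-numbered libraries correlated between -0.05 and 0.08 in DU-145 and between 0.000459 and 0.0446 in BT-549. These values show no pairing by number, but correlations near 0 between noisy bins cannot exclude it. With the replicate block, 49 members were lower in DU-145 and 23 higher in BT-549, against 47.5% and 13.3% of all promoters. The DOX effect was higher in BT-549 than in DU-145 at 43 members with the block and at 39 with TMM factors. Of all shared promoters, 34.0% and 29.7% were so. Not every library correlated best with its own number. For named members, 1110 of 1224 values kept their direction and their side of the threshold. The median standard error of a member was 0.22 in BT-549, whose DOX libraries were the shallowest, and 0.13 in DU-145, and the part of depth in this was not tested.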
